A study of Mus musculus with 8 samples.

Results

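The fragments described here lie on small nucleolar RNAs (snoRNAs) carried in the introns of 3 genes of the translation machinery: Gm25835 in Eif4a1, Snord66 in Eif4g1 and Snord16a, with 4 neighbours, in Rpl4. They were listed under piRNA names in small RNA of mouse sperm. Members were the names with a row inside chr11:69666900-69672500 (Eif4a1), chr16:20672500-20692900 (Eif4g1) or chr9:64173300-64178700 (Rpl4) of mm10. The rule found 107 of the 20210 names of the series. Of these, 106 of 13450 stood in the table of the MC-LR experiment (28 in the Eif4a1 window, 11 in Eif4g1, 67 in Rpl4) and 87 of 17375 in the table of the shRNA experiment (24, 9 and 54). Both tables listed 86 members, 20 members stood only in the MC-LR table and 1 only in the shRNA table. The windows were chosen by the measured fall of 1 of their names in 1 contrast: piR-mmu-4679168 (Gm25835) and piR-mmu-20639312 (Snord16a) under MC-LR, and piR-mmu-49237870 (Snord66) with the Hsp90aa1 shRNA. The values of the Eif4a1 and Rpl4 windows in the MC-LR table, and of the Eif4g1 window in the shRNA table, are therefore a description; where calls over a whole table include them, nothing is read from those calls.

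All libraries were from sperm of Balb/c mice at 8 months. There were 4 groups with libraries A and B each: control, exposure to MC-LR (microcystin-LR, a toxin of cyanobacteria and an inhibitor of the protein phosphatases PP1 and PP2A), a negative-control shRNA, and Hsp90aa1 shRNA, aimed at the gene of the cytosolic chaperone HSP90 alpha. According to the design text more than 1 dose of MC-LR was examined, and the labels do not say which dose a library had. MC-LR A and B may thus differ in dose, and the means, SDs and p-values of that group treat them as alike. The labels also give no route or carrier for the shRNAs, and no word on whether A and B were different animals. P-values therefore cover the spread of these libraries alone, and that spread may be technical. Control and MC-LR stand in 1 table and both shRNA groups in another. Each table lists its own set of names, so levels are compared within a table.

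Most vertebrate snoRNAs are cut out of the introns of other genes, many of them genes for ribosomal proteins and translation factors. Box C/D snoRNAs, named for a box C near the 5′ end (core TGATGA) and a box D near the 3′ end (CTGA), bind fibrillarin, NOP56, NOP58 and SNU13 and guide the methylation of ribose in ribosomal RNA. Short fragments of snoRNAs are found in small RNA libraries of many tissues, often from the snoRNA ends. Eif4a1 encodes the RNA helicase of the cap-binding complex that starts translation, Eif4g1 encodes its scaffold, and Rpl4 encodes a protein of the large ribosomal subunit.

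Values are RPM, that is, reads as a share of the library total on a common scale; the totals ran from 4960467 to 14634370 reads. The total over all listed names was lower in the treated libraries, 12.5 and 11.7% of the library under MC-LR against 38.1 and 35.3% in the control, and 4.98 and 3.18% with the Hsp90aa1 shRNA against 27.8 and 32.5% in its negative control. Only 2 of 13450 and 0 of 17375 names had a ratio of group means within 0.5 of 0 on the log2 scale, so the tables hold nearly only names that differ between the groups; the rule of listing is not given in the sources used here. Of the markers fixed to check the tissue, names on the sperm microRNA genes Mir34b, Mir34c and Mir449a were listed only in the shRNA table (1327 and 2641 RPM in the negative control, 634 and 163 with the Hsp90aa1 shRNA). Names on the 5 epithelial microRNA genes (the Mir200 family) summed to 6388 and 4690 RPM in the control against 2408 and 2490 under MC-LR, and to 2591 and 3801 RPM in the negative control against 399 and 110 with the Hsp90aa1 shRNA. Names on both smooth muscle genes (Mir143, Mir145a) and on 3 of 4 blood cell genes were lower in the treated groups too, and the liver gene Mir122 had no listed name. The part of other cell types in the results was not tested. In such bulk samples, fewer cells of a type and less of an RNA per cell cannot be told apart.

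All members lay on 7 of the 9 snoRNA genes annotated in the windows; Gm24029 and Gm22988 of Eif4a1 and the exons of the hosts had none. Each of the 7 genes was intronic in all coding transcripts of its host that span it, and each member was listed at a single locus. Their sequences, from the GENCODE M21 transcripts of GRCm38 (mm10), are shown because the members turned out to be pieces of their ends. Capitals mark the name with the highest mean over the 4 libraries of the MC-LR table on each side of the gene, and lower case the rest.
Gm25835, chr11:69668852-69668995, minus strand: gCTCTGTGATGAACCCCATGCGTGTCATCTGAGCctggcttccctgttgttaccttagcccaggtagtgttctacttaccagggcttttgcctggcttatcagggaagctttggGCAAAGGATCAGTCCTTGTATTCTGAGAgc
Snord66, chr16:20684239-20684313, plus strand: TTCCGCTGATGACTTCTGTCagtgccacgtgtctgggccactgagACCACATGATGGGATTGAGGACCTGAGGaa
Gm23344, chr9:64175048-64175115, plus strand: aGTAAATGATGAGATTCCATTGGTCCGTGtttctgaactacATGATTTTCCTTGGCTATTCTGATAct
Snord16a, chr9:64175423-64175521, plus strand: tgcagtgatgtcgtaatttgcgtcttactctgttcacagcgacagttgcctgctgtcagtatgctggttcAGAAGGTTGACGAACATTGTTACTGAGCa
Gm22571, chr9:64175873-64175942, plus strand: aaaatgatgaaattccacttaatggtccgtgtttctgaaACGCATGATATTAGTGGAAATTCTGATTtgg
Gm23136, chr9:64176661-64176759, plus strand: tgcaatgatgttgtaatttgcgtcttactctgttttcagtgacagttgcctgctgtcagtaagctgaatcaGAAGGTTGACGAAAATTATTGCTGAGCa
Gm22455, chr9:64177123-64177193, plus strand: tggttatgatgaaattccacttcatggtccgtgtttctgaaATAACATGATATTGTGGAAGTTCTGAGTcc

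On the strand of the snoRNA, the letters CTGA stood within the last 20 bases of 7 of these 7 genes, and TGATGA within the first 20 bases of 5; the exceptions were Snord16a and Gm23136. Among 1507 annotated snoRNA transcripts, 35.4% held CTGA in their last 20 bases, 21.7% held TGATGA in their first 20, and 20.5% held both. The Rpl4 snoRNAs fell into 2 kinds by sequence. Snord16a and Gm23136 were 88.9% identical over their alignment, and Gm23344, Gm22571 and Gm22455 were 71.2 to 79.5% identical to each other. None of the 87 member sequences wholly inside a gene occurred in another of the 1507 snoRNA transcripts. In Snord66 the RefSeq gene begins 17 bases after the GENCODE start, so that most of the 5′ fragment, with its TGATGA, lies upstream of the RefSeq gene.

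The members were 20 to 33 nt long and came from the snoRNA ends. On the side of the 3′ end lay 94 of 106 members in the MC-LR table and 78 of 87 in the shRNA table. Of those, 71 and 60 were wholly inside the gene and ended 0 to 3 bases past CTGA; over all 3′ names the median was 2 bases. The 5′ side had 12 and 9 members, on Gm25835, on Snord66 (a single name) and, in the MC-LR table, on Gm23344. Of all members, 20 and 17, on Gm25835, Snord16a and Gm23136, reached past the annotated gene end by a base or 2 and are left out of the sums per gene. The RefSeq gene of Snord16a ends 1 base later than that of GENCODE, so names ending at base 100 lie inside it. Among those left out is piR-mmu-15661468, with 43.4 and 37.9 RPM in the control.

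In the control libraries most of the 3′ signal ended at 1 base in 5 of the 7 genes. All 8 names of Gm22571 ended at base 67 of the gene with 8 different starts, and all 11 names of Gm22455 ended at base 69 with 11 different starts. In the control libraries 97.8% of the 3′ signal of Gm23344 ended at base 66 and 75.0% of that of Snord66 at base 73. In Gm25835, 64.3% of the 3′ signal ended at base 142, and 68.7% of the 5′ signal began at base 1. Snord16a and Gm23136 were spread more in the control. Of the signal of Snord16a, 42.5% ended at base 98, over 4 ends, with 39.2% at its main start. Of that of Gm23136, 41.5% ended at base 98, over 3 ends, with 36.7% at its main start. With the negative-control shRNA, 68.6% of the signal of Gm23136 ended at base 100, and 43.5% of that of Snord16a at base 99. The ladder of Gm22455 shows the layout of 1 end with different starts, with CTGA in capitals.
piR-mmu-48864702, 20 nt: atattgtggaagttCTGAgt
piR-mmu-49233155, 23 nt: atgatattgtggaagttCTGAgt
piR-mmu-27970539, 28 nt: ataacatgatattgtggaagttCTGAgt
piR-mmu-55931117, 31 nt: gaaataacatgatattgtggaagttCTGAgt
The shortest of these had 56.8 RPM in control A and 23.8 in control B, and the longest 6.01 and 27.2 RPM. A longer name was thus not simply a count of all shorter ones: among 440 pairs of nested members in control A, the longer name had more RPM in 140, less in 297 and the same in 3. In negative-control shRNA A the lean was the reverse, with more RPM in 184 of 321 pairs, less in 132 and the same in 5.

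Members differed from the other snoRNA names in where they ended. Among names wholly inside genes with CTGA near the end, 82.6% of 86 members and 42.4% of 1565 other names ended 0 to 3 bases past CTGA in the MC-LR table, and 85.7% of 70 against 45.4% of 1287 in the shRNA table. Of the same names, 87.2% of members and 62.5% of others lay on the 3′ side in the MC-LR table, and 88.6% against 64.6% in the shRNA table. Part of the difference in ends is thus a difference in side. T was the first base of 15.1% of members against 29.1% of 1679 other snoRNA names in the MC-LR table, and A of 37.2% against 28.4%. Names of 1 gene share their ends, so these shares describe 7 genes and were not tested.

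**Figure D1:**
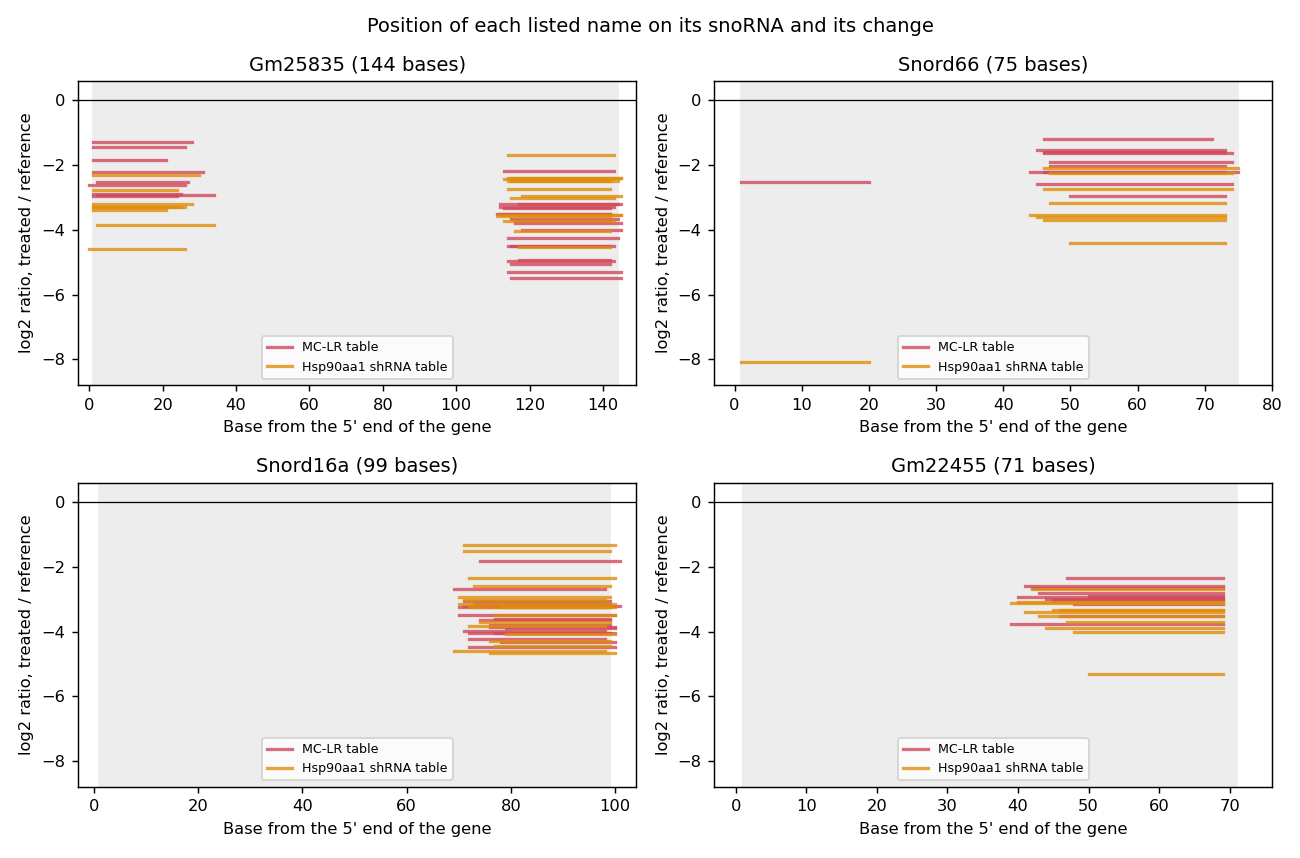
Position of each listed name (horizontal bar, from its first to its last base) on Gm25835, Snord66, Snord16a and Gm22455, with the log2 ratio of its mean RPM, treated over reference group, on the vertical axis and 1 colour per table; grey marks the annotated gene. Names gather at the 3′ end, with 5′ names on Gm25835 and Snord66, and the Snord66 5′ name stands below all others in the shRNA table.

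Per 100 bases of gene, and over names wholly inside it, the control libraries ranked Gm22455 highest at 911 ± 77.5 RPM (SD, n = 2), then Gm23344 at 802 ± 52.6, Snord16a at 581 ± 36.5, Gm22571 at 569 ± 128, Gm25835 at 356 ± 57.5, Snord66 at 288 ± 40.9 and Gm23136 at 60.8 ± 7.31. The libraries of Snord16a and Gm22571 overlapped, as did those of Gm25835 and Snord66; the other neighbours in this order were apart. Gm23136 was thus the lowest although its sequence is close to that of Snord16a. In the negative-control shRNA libraries the first was Snord66 at 233 ± 89.8 RPM per 100 bases, followed by Gm22455 at 201 ± 33.9 and Gm23344 at 168 ± 50.3. Each neighbour in that order overlapped with the next down to Gm25835 at 62.9 ± 13.0, and Gm23136 stood apart at 3.79 ± 0.667. That level of Gm23136 rests on 3 of its 7 names, as the 68.6% of its signal that ended at base 100 lay past the gene end.

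Under MC-LR the summed fragments of the Eif4a1 snoRNA Gm25835 were 39.4 and 41.8 RPM in libraries A and B, against 454 and 571 in the control. Those of the 5 Rpl4 snoRNAs were 264 and 220 RPM against 2197 and 2256. Those of Snord66 were 67.7 and 42.4 RPM against 237 and 194. Every treated library was below every control library for each host, as for 92.6% of all names listed in that table. The ratio of group means was 12.6-fold lower for Gm25835, 9.20-fold for the Rpl4 snoRNAs together and 3.92-fold for Snord66. Within Rpl4, Snord16a was 12.7-fold lower, Gm23344 and Gm22571 both 10.1-fold, Gm22455 7.15-fold and Gm23136 4.78-fold. Scaled to the sum of the listed names of each library instead of the library total, the ratios were 4.18-fold for Gm25835, 3.05-fold for Rpl4 and 1.30-fold for Snord66, and the groups were still apart. With 2 libraries against 2, an exact permutation test cannot go below p = 0.33, so no test of a sum is given.

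**Figure D2:**
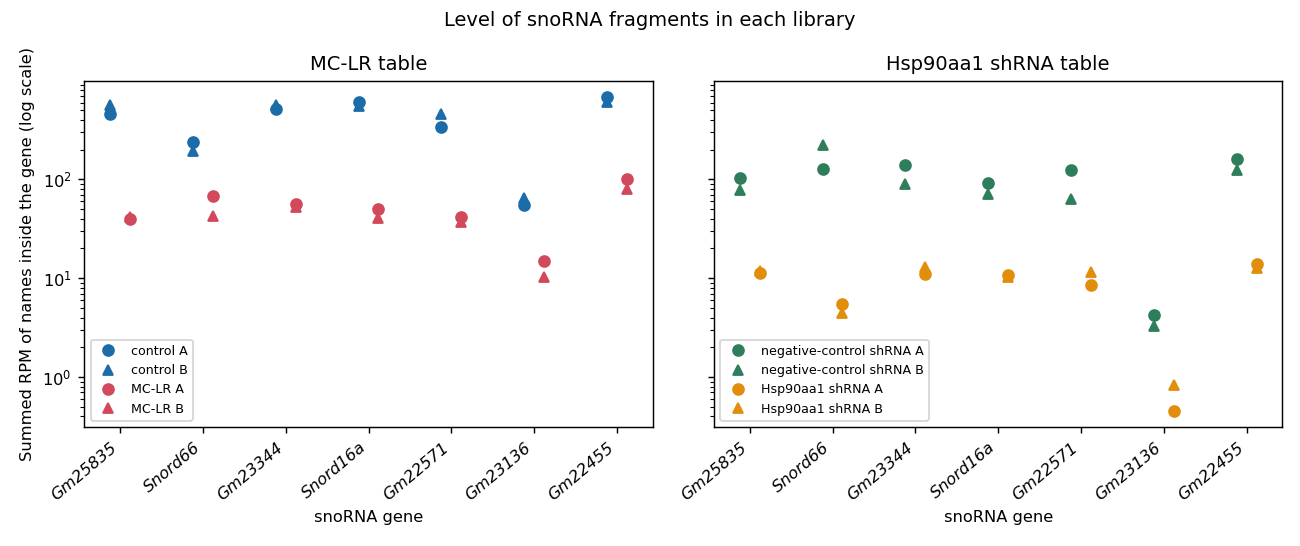
Summed RPM (log axis) of the names wholly inside each snoRNA gene, 1 point per library (circle A, triangle B), for the MC-LR table and the Hsp90aa1 shRNA table. Sums are not divided by gene length, and each table lists its own set of names. In each gene the treated libraries lie below the reference libraries, with Snord66 closest to its control in the MC-LR table and farthest from it in the shRNA table.

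The name for which the Eif4a1 window was chosen, piR-mmu-4679168 (bases 115 to 142 of Gm25835, 28 nt), had 108 and 123 RPM in the control and 2.86 and 4.12 under MC-LR, 33.1-fold lower. Its neighbour piR-mmu-5094015, 1 base longer at the 5′ end, had 104 and 118 RPM against 4.71 and 5.03. In the Rpl4 window piR-mmu-20639312 (bases 72 to 98 of Snord16a) had 134 and 103 RPM against 6.90 and 5.79. The most abundant name of that snoRNA, piR-mmu-4447245, had 143 and 149 RPM against 8.75 and 9.91. In each of these 4 names the groups were far apart and the libraries of a group close. The fall of most other members was smaller: the log2 fold change on log2(RPM + 1), which understates the change of low names, had a median of −2.69 over 28 Gm25835 names and −2.68 over 67 Rpl4 names, with the smallest at −0.92 and −0.91.

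Counted over the whole MC-LR table with limma (Benjamini-Hochberg adjusted p at 0.05), 105 of 106 members were lower under MC-LR and 0 higher, where 73.1% of all tested names were lower and 2.37% higher. The count includes windows chosen in this contrast and nothing is read from it. All 106 members were lower in each treated library than in each control library, as were 92.6% of all names. The median log2 fold change was −2.59 over the members, −1.17 over all 13271 names tested, −2.02 over 2085 snoRNA names (1959 lower, 0 higher) and −2.01 over 571 names on snoRNAs of other translation genes (533 lower, 0 higher). When edgeR's TMM factors, which centre the listed names, replaced the library totals, the median over all names moved from −1.17 to 0.06, that over the members to −1.48, and 26 members were called lower, all of them in the windows chosen in this contrast, so that nothing is read from that count beside the 2.18% of all names called.

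Snord66 was not chosen in this contrast, and 10 of its 11 names were lower in limma, again with 73.1% of all names as background. Of all snoRNA names 94.0% were lower, and of names on snoRNAs of other translation genes 93.3%. The 5′ name piR-mmu-49237870, chr16:20684239-20684258, the first 20 bases of the gene, had 74.0 and 31.2 RPM in the control and 11.4 and 6.71 under MC-LR. The control libraries differed from each other by more than the treated ones, and no control library overlapped with a treated one (log2 fold change −2.33 ± 0.46 SE, limma adjusted p = 0.00206). Pooled reads gave a ratio of 7.05 (95% exact interval 5.81 to 8.64, counting error only), and 3.49 (2.72 to 4.49) without control A. The most abundant 3′ name by mean, piR-mmu-5233735, had 52.6 and 54.0 RPM against 20.9 and 14.6 (−1.55 ± 0.35 SE, limma adjusted p = 0.00385, or 0.0652 without MC-LR B). The name that did not pass, piR-mmu-68006971, which ends on CTGA itself, had 2.80 and 1.21 RPM against 1.01 and 0.762 (−0.62 ± 0.36 SE, limma adjusted p = 0.117, or 0.0116 without control B). The median over the Snord66 names was −1.55, against −1.17 over all names. It was nearer to 0 than the −2.02 over all snoRNA names and the −2.01 over snoRNAs of other translation genes. With TMM factors the Snord66 median was −0.32, beside −0.96 and −1.05 over those 2 lists. piR-mmu-5233735 turned to 0.12 and piR-mmu-68006971 to 0.45, and 0 of 11 names were called by edgeR (1 at an unadjusted p under 0.05). piR-mmu-68006971 passed the minimum of 1 RPM only through the control. Without MC-LR B, limma called 4 of the 11.

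With the Hsp90aa1 shRNA the order of the hosts was another. Summed Snord66 fragments were 5.46 and 4.43 RPM in libraries A and B, against 127 and 223 with the negative-control shRNA, 35.4-fold lower. Those of Gm25835 were 11.4 and 11.7 RPM against 104 and 77.3, and 7.84-fold lower. Those of the Rpl4 snoRNAs were 44.5 and 48.3 RPM against 519 and 353, and 9.40-fold lower. The groups did not overlap for any host, and were likewise apart in 99.8% of all names listed in that table. Within Rpl4 the ratios ran from 5.87-fold (Gm23136, over 3 of its 7 names) to 10.8-fold (Gm22455). Scaled to the sum of the listed names, Gm25835 was 1.02-fold and Rpl4 1.23-fold lower, with libraries of both groups overlapping, and Snord66 was 4.59-fold lower with the groups apart.

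For Gm25835 and the Rpl4 snoRNAs this contrast was not used in the choice, and 78 of 78 names were lower in limma, where 99.5% of all tested names were lower and 0.219% higher; the share of members is close to that background. Their median log2 fold change was −2.00, against −1.66 over all 16859 names tested, −1.79 over 1652 snoRNA names (1652 lower) and −1.81 over 461 names on snoRNAs of other translation genes (461 lower). Groups were apart in all 87 members and in 99.8% of all names. piR-mmu-4679168 of Gm25835 had 10.6 and 9.72 RPM against 1.57 and 2.03 (−2.00 ± 0.40 SE, limma adjusted p = 0.00137). piR-mmu-20639312 of Snord16a had 10.5 and 11.1 RPM against 1.05 and 0.462 (−2.77 ± 0.39 SE, limma adjusted p = 5.84e-04). On log2(RPM + 1) the largest fall in the Rpl4 window was that of piR-mmu-49233155 of Gm22455, from 22.7 and 24.7 RPM to 2.69 and 0.923 (−3.21 ± 0.48 SE, limma adjusted p = 6.07e-04). On the same scale, which shrinks the change of low names, the smallest was that of piR-mmu-9303885 of Gm23136, from 1.34 and 1.05 RPM to 0.299 and 0.277 (−0.76 ± 0.21 SE, limma adjusted p = 0.00533). With the Hsp90aa1 shRNA, piR-mmu-9303885 averaged 0.288 RPM and piR-mmu-20639312 0.755 RPM. Both thus passed the minimum of 1 RPM only through the negative control, where they were high. The table also lists nearly only names that differ between the groups, so none of these p-values is read as support. Ratios of group means gave a different order, as names picked after their values were seen show: piR-mmu-9303885 was 4.14-fold lower and piR-mmu-27913705 of Snord16a 2.88-fold, while piR-mmu-49233155 was 13.1-fold lower and piR-mmu-67779948 of Snord16a 24.3-fold.

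With TMM factors the median over all names in the shRNA table was −0.03 and that over these 78 names −0.49, and 0 of the 78 were called lower by edgeR (9 at an unadjusted p under 0.05), where 0.125% of all names were called. The direction of single members then depended on the scaling: piR-mmu-4679168 turned to 0.39, the median over Gm23136 to 0.28, and with library medians set equal the median over Snord16a names to 0.22 and over Gm25835 names to 0.03. Depth limits these values. Of the 87 members, 26 had 3 reads or fewer in Hsp90aa1 shRNA A and 29 in B, and the median member had 8 and 7 reads there, against 62 in both negative-control libraries. Under MC-LR, 23 and 14 of 106 members had 3 reads or fewer.

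The large ratio of Snord66 in the shRNA table rested on its 5′ name, for which the window was chosen. piR-mmu-49237870 had 85.2 and 187 RPM (827 and 2500 reads) in the negative-control libraries and 0.898 and 0.0923 RPM (12 reads and 1 read) in those of the Hsp90aa1 shRNA. Pooled reads gave a ratio of 268. The window was chosen by this fall, so no interval is given and the ratio is a description. It was 160 without Hsp90aa1 shRNA B and 1561 without Hsp90aa1 shRNA A, which leaves 1 treated read. Without negative-control shRNA A it was 348 and without negative-control shRNA B 158, so its size is not settled by these libraries. The 8 Snord66 names of the 3′ side together went from 42.3 and 35.9 RPM to 4.57 and 4.34, 8.78-fold lower. The most abundant of them, piR-mmu-5233735, had 13.5 and 11.2 RPM against 0.898 and 1.02. The 3′ fragments were thus lower by a ratio between those of Gm25835 and the Rpl4 snoRNAs, while the 5′ fragment was far below. Median-centred libraries put the median over all 9 Snord66 names at 0.47 and the 5′ name at −4.63.

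Shares of the 5′ side within a snoRNA do not depend on the scaling of the libraries. In Snord66 the 5′ name held 66.8 and 83.9% of the RPM in the negative-control libraries and 16.4 and 2.08% in those of the Hsp90aa1 shRNA. It held 31.2 and 16.1% in the control and 16.9 and 15.8% under MC-LR, where the groups overlapped. In Gm25835 the 5′ names held 15.0 and 12.7% in the control and 38.9 and 40.1% under MC-LR, with the groups apart: the 5′ side was 4.40-fold lower and the 3′ side 18.0-fold. With the shRNAs they held 29.9 and 41.6% against 36.8 and 25.2%, and the groups overlapped (8.84-fold and 7.39-fold lower). In Gm25835 and in Snord66 the groups were apart only in the table in which the window was chosen. The choosing names were a 3′ name of Gm25835 and the 5′ name of Snord66, so those shares are a description. The part of the choice in their direction was not tested. Gm23344 had 5′ names only in the MC-LR table, at 0.46 and 0.81% in the control and 0.90 and 2.05% under MC-LR (3 and 7 reads). Its window was chosen in the same contrast by a name of Snord16a.

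**Figure D3:**
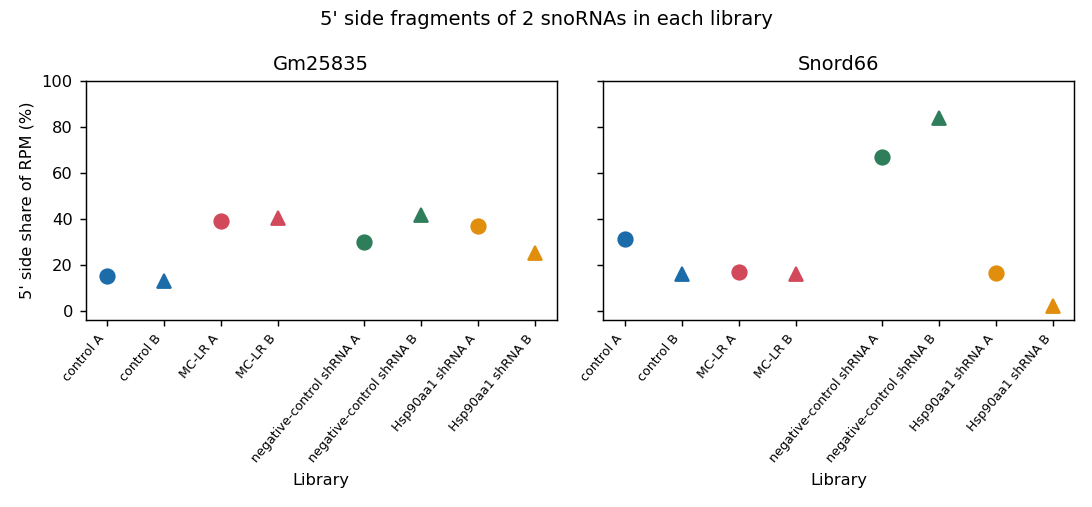
Share of the RPM of Gm25835 and Snord66 that lay in 5′ side names, in percent, 1 point per library (circle A, triangle B). Gm25835 rises from 15.0 and 12.7% to 38.9 and 40.1% under MC-LR, and Snord66 drops from 66.8 and 83.9% to 16.4 and 2.08% with the Hsp90aa1 shRNA.

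Fragment length differed between libraries of a group. Among members, the log2 ratio of control A to control B had a median of 1.02 over 11 names of 20 to 23 nt (A higher in 11), 0.18 over 52 names of 24 to 28 nt and −0.66 over 43 names of 29 to 33 nt (A higher in 6). Across the 106 members it ran against length with Pearson's r = −0.81, as a description of overlapping names from the same libraries. In the negative-control shRNA libraries it ran the other way, with medians of −0.29, 0.36 and 0.82 and r = 0.70 over 87 members. In the treated groups r was −0.18 (MC-LR) and −0.53 (Hsp90aa1 shRNA). The same lean was present in the whole tables: names of 29 nt or more made up 18.4 and 34.6% of all listed RPM in the control libraries, 31.9 and 17.4% in the negative-control shRNA libraries and 22.5 and 46.3% in the Hsp90aa1 shRNA libraries. Names of up to 23 nt, the class of the Snord66 5′ name with its 20 nt, held 34.3 and 53.4% of the listed RPM with the negative-control shRNA against 44.9 and 20.8% with the Hsp90aa1 shRNA. In that table the ratio of sums was 9.28-fold over all names of 17 to 23 nt, 7.06-fold for 24 to 28 nt and 5.61-fold for 29 to 35 nt. Over the members it was 39.3-fold, 9.56-fold and 6.56-fold for 20 to 23, 24 to 28 and 29 to 33 nt. The first of these includes the Snord66 5′ name, without which the other 10 members of 20 to 23 nt went from a mean sum of 81.2 RPM to 5.03, 16.1-fold lower. The part of fragment length in the fall of the Snord66 5′ name was not tested.

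**Figure D4:**
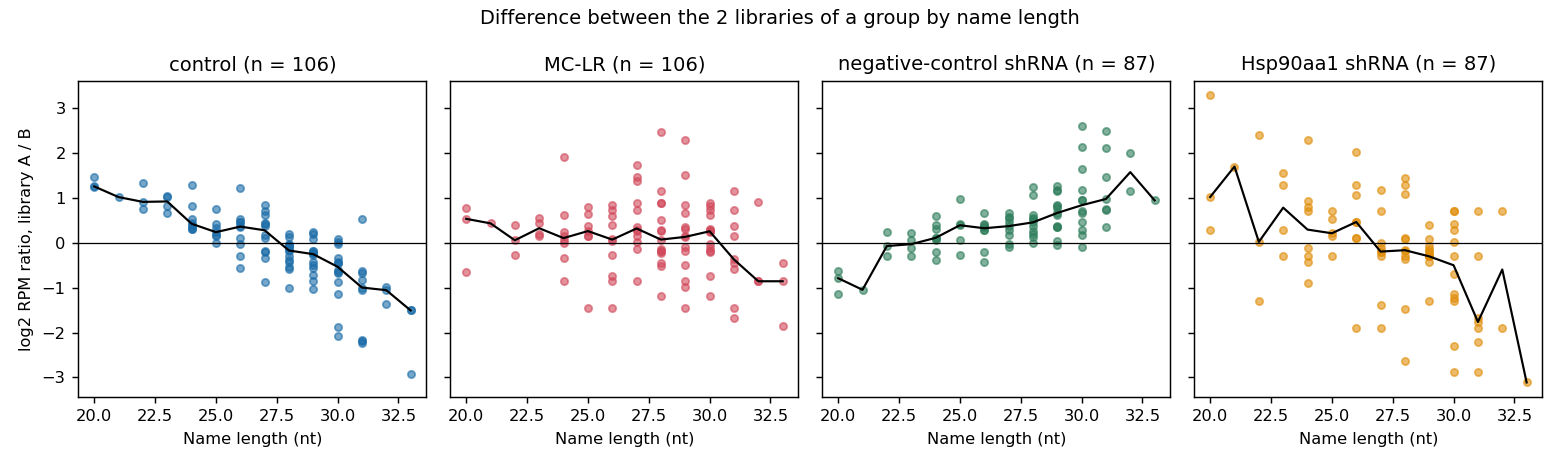
Log2 ratio of RPM between library A and library B of each group against the length of the name in nt, 1 point per member and the median at each length as a line. Short members are higher in control A and long ones in control B, and the negative-control shRNA libraries show the reverse.

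For the 86 members in both tables the median log2 ratio of group means was −3.22 under MC-LR and −3.32 with the Hsp90aa1 shRNA; 47 had the lower ratio in the shRNA table and 39 in the MC-LR table. Over all 10615 names in both tables the medians were −1.66 and −3.04, and 9672 names (91.1%) had the lower ratio in the shRNA table. In the fits the order of the members' medians was reversed, with MC-LR the lower, and they were farther apart. They were −2.76 under MC-LR and −1.99 with the shRNA on log2(RPM + 1), which shrinks the change of low names. With TMM factors they were −1.52 and −0.51. Across the 86 names r was −0.08, a description over overlapping names of tables with their own lists. Of 9 Snord66 names, 8 had the lower ratio in the shRNA table (medians −2.03 and −3.54), as did 9 of 11 Gm22455 names, beside 91.1% of all names. Of 17 Snord16a names, 11 had the lower ratio in the MC-LR table (−3.79 and −3.26), and of 23 Gm25835 names 12 did.

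**Figure D5:**
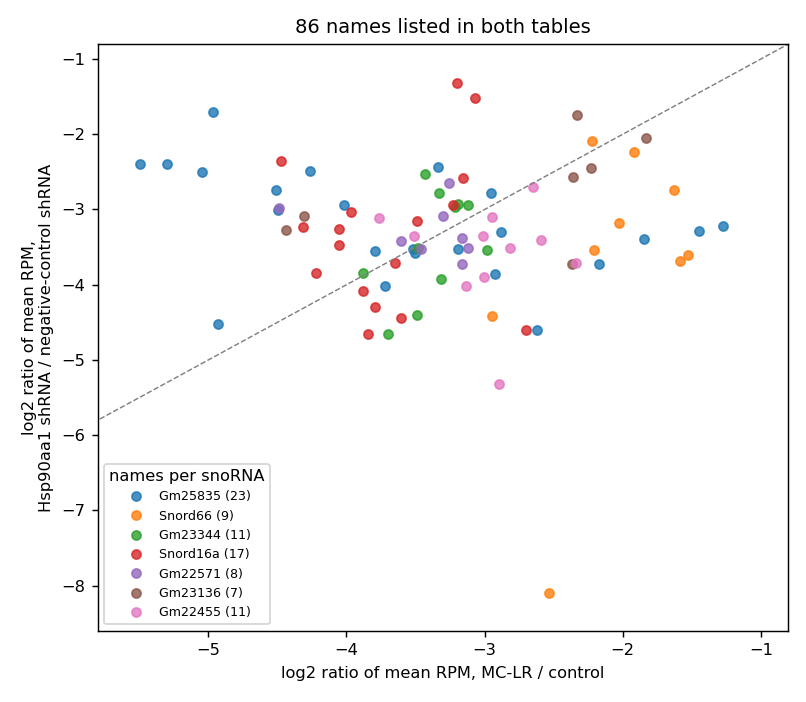
Log2 ratio of group means for the 86 members in both tables, MC-LR over control on the horizontal axis and Hsp90aa1 shRNA over negative-control shRNA on the vertical axis, coloured by snoRNA; the dashed line marks equal ratios. Snord66 names lie mostly below the line and the 5′ name is the lowest point.

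Over the 8 libraries, in 2 tables with their own lists of names, summed levels (log2 of RPM + 1) were compared with those of 160 snoRNA genes. Snord66 was most like Snord42a of Rpl23a (r = 0.989), Snord83b of Rpl3 (0.988) and Gm26202 of Rpl17 (0.987), with a median r of 0.902. Gm25835 was most like Gm23344 of Rpl4 (0.996), Gm22744 (0.995) and Snord16a (0.995), with a median of 0.961. Snord16a was most like Gm26457 of Eef1b2 (0.997), Gm26493 (0.997) and Snora69 of Rpl39 (0.996), with a median of 0.964. All of these follow the 4 groups, in which nearly every snoRNA was low in the treated libraries.

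The window limits fell in stretches without names. The nearest names outside the Eif4a1 window in the MC-LR table were piR-mmu-54759392, with 2.94 and 2.82 RPM in the control against 0.505 and 0.457, and piR-mmu-48754877, with 2.05 and 1.61 RPM against 0.505 and 0.762. The nearest inside were piR-mmu-17800804, with 21.1 and 18.5 RPM against 1.68 and 0.762, and piR-mmu-4396822, with 5.06 and 2.82 RPM against 0.673 and 0.610. Around the Eif4g1 window the nearest names outside in the shRNA table were piR-mmu-49973120, with 3.40 and 10.3 RPM against 0.524 and 0.0923, and piR-mmu-67814422, with 3.50 and 0.897 RPM against 0.374 and 0.462. The outermost names inside were piR-mmu-49237870, given above, and piR-mmu-55351421, with 1.85 and 1.64 RPM against 0.449 and 0.369.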

How the data were processed

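Small RNA of 8 sperm libraries was used, grouped by their titles. The authors deposited 2 tables of RPM per piRNA name. The submitters' processing notes name HTSeq 0.6.0, HISAT2 2.1.0 and Bowtie2 2.2.3 with mm10, and Trizol was used for RNA, per the labels' protocols. Which tool did which step, how reads were trimmed and whether strand was used is not given in the sources used here. The deposited RPM values were whole multiples of 1 read of their library (100% within 0.01), which gave back reads and totals; 3 reads are 0.205 to 0.605 RPM in the MC-LR table and 0.224 to 0.309 RPM in the shRNA table. No other columns of values were present (0). Names listed at several loci were used once. Overlapping names may share reads and are not independent.

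Each table was fitted whole with limma 3.58.1 (trend, robust) in R 4.3.3 on log2(RPM + 1), keeping names that averaged 1 RPM or more in a group, after a test on simulated data; edgeR 4.0.16 on the recovered reads was an alternative. Positions came from GENCODE M21; identity was computed with Biopython 1.88, intervals with scipy 1.17.1. The members and lists were chosen with earlier results of these data known. Names printed were, per window and table, the name it was chosen for, the 3 most abundant, the largest and smallest fall, the most abundant of each other snoRNA, and the nearest inside and outside the window; of these the most telling are given. Names of the Gm22455 ladder were added for their layout. The ratios of the Snord66 5′ name without a library, the short members without it and the values over all names in both tables were added after seeing the data.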

Additional observations from a re-analysis of the deposited data

How the results depend on the processing

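The counts rest on the scaling. Of the members, limma called 105 lower in the MC-LR table and 87 in the shRNA table, beside 73.1 and 99.5% of all names. With TMM factors edgeR called 26 and 1, beside 2.18 and 0.125% of all names. With library medians set equal limma called 49 and 1, beside 655 of 13271 and 69 of 16859 names. All member calls of these alternatives lay in windows chosen in the same contrast, so nothing is read from them. For Snord66 in the MC-LR table both alternatives gave 0 (1 and 2 at an unadjusted p under 0.05). For Gm25835 with the Rpl4 snoRNAs in the shRNA table both gave 0 (9 and 22). A minimum of 5 RPM left 47 members in the shRNA table, 44 of them of Gm25835 and Rpl4, all called. With 1 library left out, calls were 86 to 105 (MC-LR members), 4 to 11 (Snord66, 4 without MC-LR B), 81 to 87 (shRNA members) and 72 to 78 (Gm25835 and Rpl4). The letters A and B are not said to pair libraries; with a replicate block the calls were 105, 10, 85 and 76, and A deviations correlated between groups by 0.29 and −0.67 over members.

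Sums per host depended on the scale too. Scaled to the listed RPM of each library, the folds were 4.18 (Eif4a1), 1.30 (Eif4g1) and 3.05 (Rpl4) under MC-LR and 1.02, 4.59 and 1.23 with the shRNA. The highest single name in place of the sum gave 33.1 (Eif4a1) and 15.7 (Rpl4) under MC-LR and 275 (Eif4g1) and 13.1 (Rpl4) with the shRNA. Without 1 library, Eif4a1 ran from 11.2 to 14.1, Eif4g1 from 3.19 to 5.09 and Rpl4 from 8.43 to 10.1 under MC-LR, and from 6.69 to 8.99, 25.8 to 45.0 and 7.61 to 11.2 with the shRNA.

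Of 39 named values, 11 turned above 0 with TMM factors. These were piR-mmu-5233735 (0.12) and piR-mmu-68006971 (0.45) under MC-LR and, with the shRNA, piR-mmu-12203219 (0.076), piR-mmu-15928883 (0.26), piR-mmu-27970539 (0.18), piR-mmu-4679168 (0.39), piR-mmu-5094015 (0.11), piR-mmu-5103689 (1.16), piR-mmu-55351421 (0.74), piR-mmu-806736 (1.10) and piR-mmu-9303885 (0.78). With library medians set equal 9 did: piR-mmu-29248259 (0.37), piR-mmu-4953283 (0.36) and piR-mmu-68006971 (0.66) under MC-LR, and piR-mmu-17800804 (0.072), piR-mmu-20146949 (0.68), piR-mmu-5103689 (0.90), piR-mmu-55351421 (0.87), piR-mmu-806736 (0.71) and piR-mmu-9303885 (1.07) with the shRNA. The cause was not tested. Pseudocounts of 0.5 and 0.1 and library totals in edgeR turned none of the 39.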
